A study of Mus musculus with 92 samples.

Results

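The cytoplasmic ribosomal protein genes of the mouse were examined in chromatin immunoprecipitation sequencing (ChIP-seq) peak lists of 3 subunits of cohesin (STAG1, STAG2, STAG3) and of the insulator protein CTCF. Members were taken by symbol from the protein-coding genes of chromosomes 1 to 19 and X: Rpl or Rps followed by a number and an optional a or x, with Rplp0, Rplp1, Rplp2 and Rpsa. This gave 76 of 21631 genes, of which 43 encode large-subunit proteins, 30 small-subunit proteins and 3 the P stalk of the large subunit. A gene was counted in a list when a peak overlapped, by at least 1 bp, the stretch within 2500 bp of either gene end; such a peak is called here a gene-end peak. A peak is an interval where the authors' peak caller found reads piled up above its background, and a gene without one is a gene where none was called. The depth of the libraries behind the lists is unknown here.

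The 30 lists came from 5 kinds of cultured cells. Wild-type embryonic stem cells (ESC), EpiLC (epiblast-like cells) and the primordial germ cell-like cells of 2 stages named d2PGCLC and d4c7PGCLC were of the BVSC line (BDF1-2-1, with the reporters Blimp1-mVenus and Stella-ECFP). Wild-type germline stem cells (GSC), which are self-renewing cells of the male germline, were of the AAG line (Acrosin-EGFP and beta-Actin-EGFP), so cell type and line cannot be told apart for GSC. Both PGCLC stages were sorted as Blimp1-mVenus-positive cells, and the GSC as AAG-positive cells. Of STAG1 there were 2 lists per cell type, of STAG2 3 lists per cell type except for 2 each in EpiLC and ESC, and of STAG3 3 lists, all from GSC. For CTCF there was 1 list, called on pooled replicates, for each of 4 mutant GSC genotypes: Stag3 KO, Stag1Stag2dKO, Stag1Stag3dKO and Stag2Stag3dKO (KO, knockout; dKO, double knockout). There was no CTCF list of wild-type cells or of another cell type here. Whether replicates were grown as separate cultures is not stated in the labels, and the p-values therefore cover the spread between these samples alone, which may be technical.

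Cohesin is a ring-shaped complex that holds sister chromatids together and extrudes chromatin loops, and it often comes to rest at CTCF sites. STAG1 and STAG2 are found in most proliferating cells, whereas STAG3 was characterised mainly in meiotic cells. Ribosomal protein genes are among the most highly transcribed genes of any growing cell. Their products are made in equal amounts for the large and the small ribosomal subunit, yet the genes lie scattered over the genome as separate units. Their promoters are known for a pyrimidine-rich initiator at the start site and for sites of ETS-family factors such as GABP, and their introns often hold small nucleolar RNA (snoRNA) genes.

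The members were short and scattered. They lay on 19 chromosomes, with 4 of them on X, and their median length was 3169.5 bp, against 17329 bp over all protein-coding genes. The gene-end windows of short genes overlap, so the members' median window was 8169.5 bp, against 10002 bp over all genes. A snoRNA gene lay within 29 members (38.2%), against 1.72% of all genes. Another protein-coding gene's end lay in the window of 41 members (53.9%), against 35.6% of all genes, and a peak there could belong to either gene.

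Promoter sequences, from 250 bases before to 50 after the annotated start (RefSeq, GRCm38.p6), were at hand for 56 members and 17274 genes. The 4 promoters below are shown as examples of promoters with STAG3 summits in all lists and no CTCF summit (Rps7, Rpl35) and of promoters with CTCF summits in all lists (Rpl26, Rps4x). Each is given 5′ to 3′ in the direction of transcription, from 200 bases before the start to 12 from it on. Capitals mark matches, on either strand, to the ETS motif CCGGAAG or the CTCF core CNAGNGGGC, and CTTT within 10 bases of the start on the sense strand. The promoter of Rps7 (chr12:28635942-28636153, minus strand) held STAG3 summits in all 3 lists, a STAG2 summit in 1 list and no STAG1 or CTCF summit.
Rps7: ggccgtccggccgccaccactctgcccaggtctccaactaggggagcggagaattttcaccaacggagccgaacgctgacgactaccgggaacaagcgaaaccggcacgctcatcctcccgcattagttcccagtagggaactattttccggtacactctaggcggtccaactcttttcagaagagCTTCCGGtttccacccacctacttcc
The promoter of Rpl35 (chr2:39005120-39005331, minus strand) held the same combination.
Rpl35: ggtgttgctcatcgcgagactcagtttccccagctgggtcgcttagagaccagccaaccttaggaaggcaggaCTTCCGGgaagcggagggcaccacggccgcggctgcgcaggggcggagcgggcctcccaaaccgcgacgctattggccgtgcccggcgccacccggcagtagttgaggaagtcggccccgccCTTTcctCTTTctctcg
The promoter of Rpl26 (chr11:68901366-68901577, plus strand) held CTCF summits in all 4 CTCF lists, STAG1 summits in 5 lists, STAG2 summits in 13 and STAG3 summits in 2.
Rpl26: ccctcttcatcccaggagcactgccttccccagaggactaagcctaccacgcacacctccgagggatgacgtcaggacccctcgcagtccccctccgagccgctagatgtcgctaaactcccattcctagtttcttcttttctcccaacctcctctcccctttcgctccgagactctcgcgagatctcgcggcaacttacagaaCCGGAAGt
The promoter of Rps4x (chrX:102189380-102189591, minus strand) held CTCF summits in all 4 CTCF lists, STAG1 summits in 2 lists, STAG2 summits in 11 and a STAG3 summit in 1, with a match to the CTCF core.
Rps4x: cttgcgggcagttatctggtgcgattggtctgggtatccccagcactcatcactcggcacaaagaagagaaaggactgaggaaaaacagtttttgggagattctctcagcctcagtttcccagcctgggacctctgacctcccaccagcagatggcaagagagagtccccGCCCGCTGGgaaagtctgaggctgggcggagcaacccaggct

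In Rps7 the ETS match began 14 bases before the start, and the STAG3 summits lay at -156 to -39 bp from the start, where negative values are upstream. In Rpl35 the match began 127 bases before the start, with STAG3 summits at -171 to -91 bp. The strongest CTCF gene-end peaks of Rpl35, in all 4 CTCF lists, had summits at -748 to -711 bp, outside the promoter window. In Rps4x the CTCF core match began 30 bases before the start, and the CTCF summits lay at -72 to -62 bp.

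Over the 56 promoters, the ETS motif was found in 22 (39.3%), against 12.1% of all 17274 promoters of the same length. CTTT at the start, the letters of the pyrimidine-rich initiator, was found in 16 (28.6%), against 8.29%. The YY1 motif AAGATGGC was found in 5 (8.93%), against 3.23%. By contrast, the Sp1 motif GGGGCGGG was found in 8 (14.3%), against 22.6%, and the CTCF core in 3 (5.36%), against 8.67%. All motifs but CTTT were searched on both strands. A match is a description of the letters only. The median CpG ratio (observed over expected) was 0.89 in members and 0.59 over all promoters, at a median GC content of 57.5% and 56.3%.

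Every one of the 76 members had a gene-end peak in at least 1 of the 30 lists, whereas 21.4% of all genes had none in any list. The median member was present in 13 of the 26 STAG lists, against 9 for all genes. By protein, the median was 1.5 of 10 STAG1 lists, 8.5 of 13 STAG2 lists and 2 of 3 STAG3 lists. Over all genes these medians were 0, 6 and 2. There were 33 members in no STAG1 list (58.4% of all genes), 4 in no STAG2 list (25.9%) and 2, Rpl10 and Rpl39, in no STAG3 list (32.7%). Rps24 stood at the low end, with a peak in a single STAG list, the second GSC STAG3 list.

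**Figure D1:**
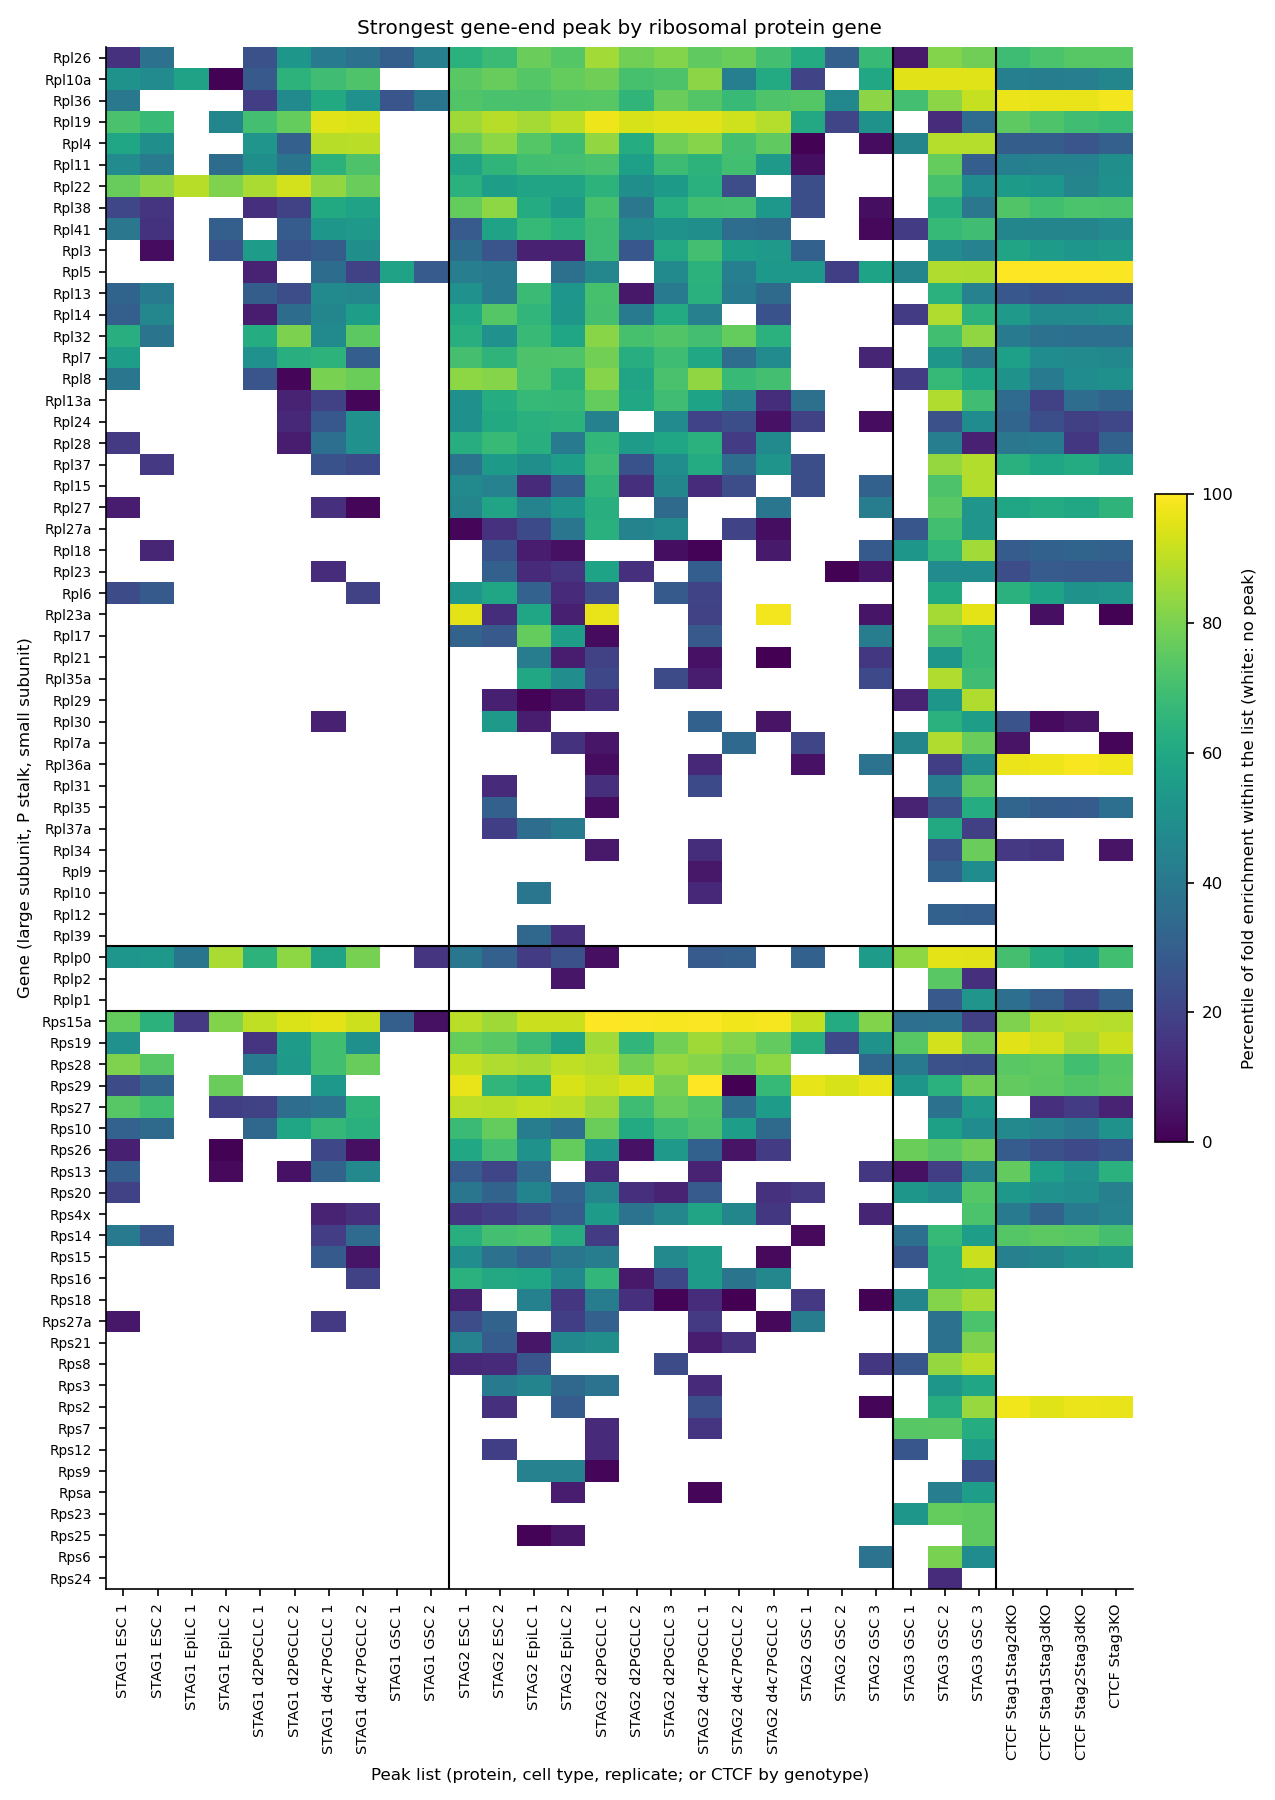
Each row is 1 of 72 ribosomal protein genes, grouped by subunit and ordered by the number of STAG lists, and each column is 1 of the 30 peak lists. Colour is the percentile, within its list, of the fold enrichment of the strongest gene-end peak, and white is no peak; the STAG3 columns 2 and 3 are filled for 66 and 68 of the genes drawn, while the GSC STAG1 columns are filled for 4 and 5.

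In ESC, 30 and 23 members had a STAG1 gene-end peak in the 2 lists. In EpiLC the numbers were 5 and 13, in d2PGCLC 22 and 28, in d4c7PGCLC 39 and 37, and in GSC 5 and 6. Presence of STAG1 at these genes was thus highest in d4c7PGCLC and lowest in GSC and the first EpiLC list. For STAG2 the numbers were 48 and 56 in ESC, 58 and 60 in EpiLC, 60, 36 and 43 in d2PGCLC, 57, 36 and 41 in d4c7PGCLC, and 27, 9 and 33 in GSC. The 3 GSC STAG2 lists lay below all others, the d2PGCLC and d4c7PGCLC numbers overlapped, and both EpiLC lists lay above both ESC lists. The same held over all genes. There the GSC STAG2 shares were 33.1%, 15.1% and 35.8%, and the other STAG2 lists held 38.1% to 63.8%. STAG3 was present at 30, 70 and 72 members in GSC (27.5%, 61.7% and 62.6% of all genes).

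List length moved with these numbers. Lists with few peaks were the GSC STAG1 lists (9641 and 10778 peaks), the first EpiLC STAG1 list (14720), the second GSC STAG2 list (13698) and the first STAG3 list (12832). The other STAG lists held 21438 to 84904 peaks. The part of list length in the counts below was not tested beyond the equal-length values given beside them.

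Counted in every list of a group, STAG1 was present at 20 members in ESC (23.9% of all genes), 5 in EpiLC (12% of all genes) and 21 in d2PGCLC (19.9%). It was present at 35 members in d4c7PGCLC (29.4%) and at 5 in GSC (7.75%). As shares of the 76 members these were 26.3%, 6.58%, 27.6%, 46.1% and 6.58%. The members' STAG1 share was thus above that of all genes in d4c7PGCLC, d2PGCLC and, by a little, ESC, and below it in EpiLC and GSC. For STAG2 the counts in every list were 46 (52.2% of all genes), 54 (54.6%), 35 (39.5%), 29 (31.9%) and 8 (13.3%) in the same order of cell types. The members' shares were 60.5%, 71.1%, 46.1%, 38.2% and 10.5%. Without the first EpiLC list the STAG1 count in EpiLC was 13, and without the second GSC list the STAG2 count in GSC was 17.

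**Figure D2:**
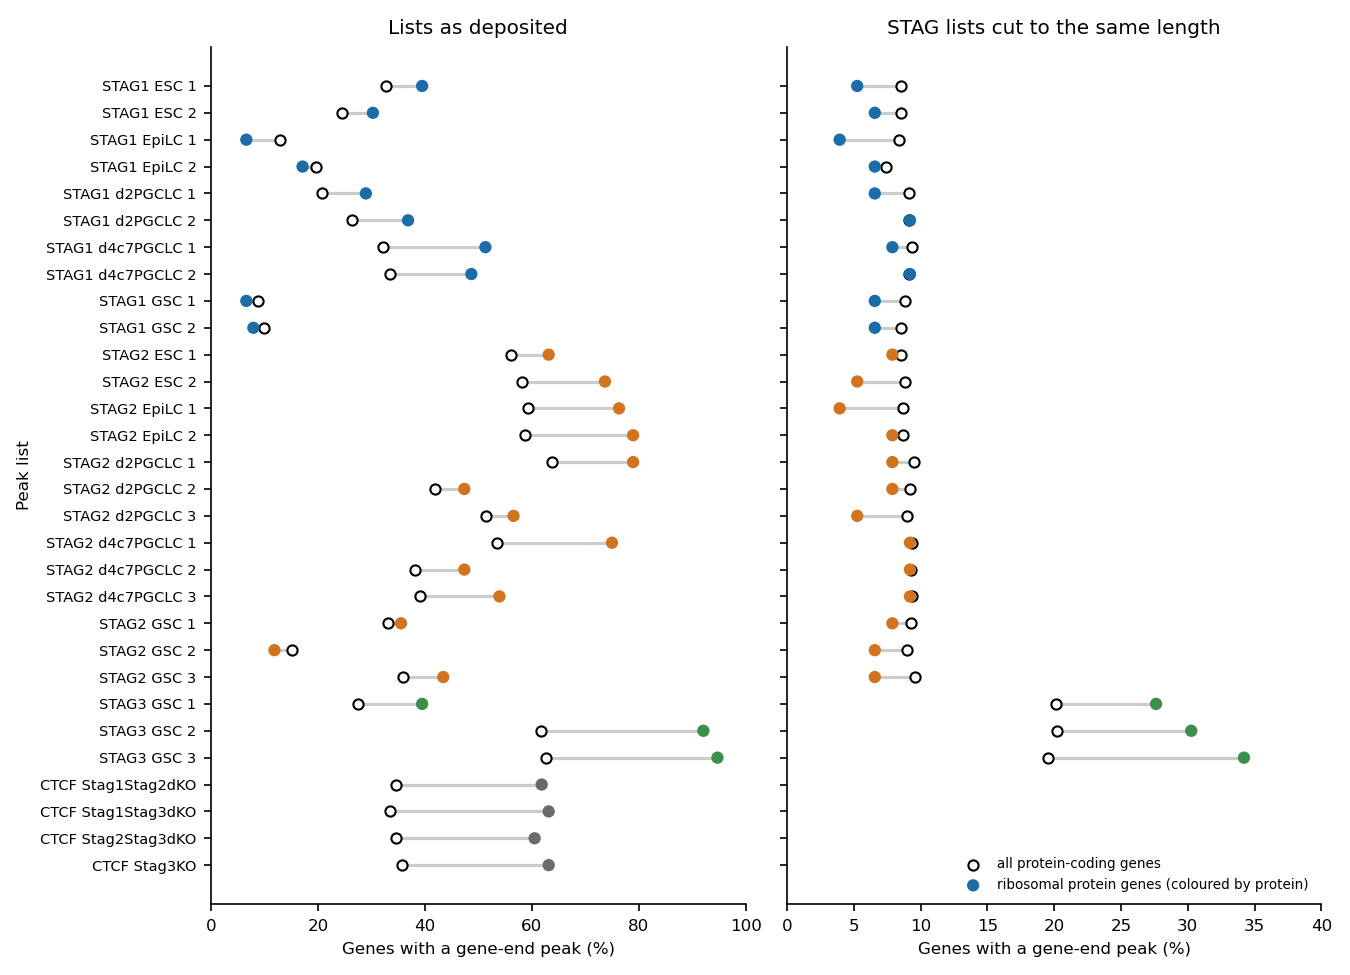
The left panel shows the percentage of ribosomal protein genes (filled points, coloured by protein) and of all protein-coding genes (open points) with a gene-end peak in each of the 30 lists. The right panel shows the same with each of the 26 STAG lists cut to its 9641 strongest peaks. The 3 STAG3 lists then lie at 27.6%, 30.3% and 34.2% of members, to the right of all genes. No STAG1 or STAG2 list exceeds 9.21% of members or 9.59% of all genes.

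STAG3 was called in GSC at more ribosomal protein genes than any STAG1 or STAG2 list of the same cells held, except that the first STAG3 list, with 30, lay below the third STAG2 list, with 33. All 3 STAG3 lists held a peak at 29 members (38.2%), against 26.6% of all genes. That number rested on the short first list: the second and the third lists shared 68 members. The peak names of the STAG3 lists show another working directory than those of STAG1 and STAG2, so protein and processing run cannot be told apart for STAG3. Per list, the members' shares were 39.5%, 92.1% and 94.7%, and those of all genes 27.5%, 61.7% and 62.6%. With each STAG list cut to its 9641 strongest peaks, STAG3 was present at 21, 23 and 26 members, or 27.6%, 30.3% and 34.2%, against 20.1%, 20.2% and 19.5% of all genes. At that length the members' share in each STAG1 and STAG2 list was 3.95% to 9.21%, against 7.43% to 9.59% of all genes. The STAG3 lists thus held the larger share over all genes as well.

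Within GSC, 23 members had STAG3 in all 3 lists and STAG1 in neither list, against 18.7% of all genes. Among those with the strongest STAG3 peaks were Rpl10a, Rps19, Rps26, Rpl4, Rps18, Rps7, Rpl7a, Rps23 and Rpl18. STAG3 in all 3 lists and STAG2 in none was found at 9 members, against 6.43% of all genes: Rps26, Rps7, Rps23, Rps15, Rpl14, Rpl29, Rpl27a, Rpl8 and Rpl35. No member showed the opposite, STAG1 or STAG2 in all lists and STAG3 in none (0.0555% and 0.259% of all genes). With 3 lists against 3, an exact permutation test cannot go below p = 0.1, so no gene was tested here. Without the first STAG3 list the counts were 62 and 26, against 46.8% and 18.5% of all genes. Without the third GSC STAG2 list the second count was 15, against 9.47% of all genes. With each list cut to the length of the shortest, the first count was 8, against 4.89% of all genes.

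Several of these genes show the pattern at the level of single lists. Rps23, a small-subunit protein at the decoding centre, had no peak in any STAG1, STAG2 or CTCF list, and STAG3 fold enrichments of 6.07, 7.55 and 7.43 in the 3 lists. Rps7, a small-subunit protein, had STAG3 values of 7.35, 7.32 and 6.26 and was otherwise present only in the first d2PGCLC and the first d4c7PGCLC STAG2 lists, at 4.27 and 4.42. Rps26, which lies at the messenger RNA exit of the small subunit, had STAG3 values of 7.67, 7.32 and 7.82 and no STAG1 or STAG2 peak in GSC, while each of the 10 STAG2 lists from BVSC cells held one. These fold enrichments are the authors' values and rank peaks within 1 list only. Among the strongest STAG3 peaks of members by percentile were those of Rpl10a and Rplp0. Rpl10a had fold enrichments of 11.8, 13 and 12.9 in the STAG3 lists.

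Each STAG2 list held more members than either STAG1 list of the same cells in ESC, EpiLC, d2PGCLC and GSC, and in d4c7PGCLC the numbers overlapped. Over all genes, each STAG2 list held the larger share in every cell type. In d4c7PGCLC these shares of all genes were 53.6%, 38.1% and 39.2% for STAG2, against 32.2% and 33.5% for STAG1. Over the 23 STAG1 and STAG2 lists, compared within each cell type by an exact stratified permutation test of presence (two-sided, Benjamini-Hochberg adjusted over 14963 genes), 14 of 70 testable members were present in more STAG2 than STAG1 lists and 0 in fewer (25 and 0 at an unadjusted p under 0.05). The background was 27.5% of all genes tested in the first direction and 0.0134% in the second, so the members' 20% lay below it. The remaining 6 members were in all or none of these lists and could not be tested. Among the 14 were Rpl15, Rps18, Rps16, Rpl27a, Rps4x, Rps29, Rps20, Rpl23a, Rpl37, Rps21, Rpl17, Rps19 and Rpl13a. Rpl15, a large-subunit protein, was in 0 of 10 STAG1 and 11 of 13 STAG2 lists (adjusted p = 0.00611, exact permutation test). Rps18, a small-subunit protein of the head, was in 0 and 10 (adjusted p = 0.0115, exact permutation test), and with the annotated start only its adjusted p was 0.603. Rps29, another small-subunit protein, was in 4 and 13 (adjusted p = 0.0162, exact permutation test), and its STAG2 fold enrichments in GSC were 44.7, 33.5 and 42.7.

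The cell types did not give the same number of members with STAG2 in all lists and STAG1 in none. There were 42 in EpiLC (34.4% of all genes), 14 in ESC (20%), 10 in d2PGCLC (14%), 3 in GSC (4.44%; Rpl19, Rps19 and Rps29) and 0 in d4c7PGCLC (5.05%). As shares of the members these were 55.3%, 18.4%, 13.2%, 3.95% and 0. The EpiLC count stood beside the low STAG1 numbers of EpiLC given above. The reverse, STAG1 in all lists and STAG2 in none, was seen for Rps14 in d4c7PGCLC (0.656% of all genes) and for no member in ESC (0.0555% of all genes), EpiLC (0.0139%), d2PGCLC (0.0185%) or GSC (0.0231%). With each list cut to 9641 peaks, 17 members could be tested and 1 was called, against 2.68% of all genes tested. It was Rpl22, in 8 STAG1 lists and 0 STAG2 lists (adjusted p = 0.0169, exact permutation test).

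Each GSC STAG2 list held fewer members than any STAG2 list of the BVSC line, and the GSC STAG1 lists, with 5 and 6, held fewer than all but the first EpiLC list, with 5. Compared within each protein by the same exact stratified permutation test, 15 of 70 testable members were present in fewer GSC lists and 0 in more (24 and 0 at an unadjusted p under 0.05), against 13.6% and 0.0601% of all genes tested, and the members' share was 21.4%. The 15 were Rps27, Rpl13, Rpl32, Rps10, Rpl8, Rpl28, Rps26, Rpl14, Rpl11, Rps16, Rpl22, Rpl10a, Rpl3, Rpl41 and Rps28. Rps27, a zinc-binding protein of the small subunit, was in 17 of the 18 STAG1 and STAG2 lists of the other cells and in 0 of the 5 GSC lists (adjusted p = 0.00906, exact permutation test). Its STAG2 summits lay at -2569 to -2463 bp from the start, at the edge of the window, and with a window of 1000 bp its adjusted p was 1. Rpl13, Rpl32 and Rps10 were each in 16 and 0 (adjusted p = 0.0125, exact permutation test). STAG2 was present throughout the 10 lists from BVSC cells and was called in no GSC list at 8 members (4.81% of all genes): Rpl13, Rpl28, Rpl32, Rpl8, Rps10, Rps16, Rps26 and Rps27. For STAG1 this held for Rpl10a and Rpl22 (4.29% of all genes). The reverse, STAG2 in all GSC lists and in none of the other cells, was seen at 0 members (0.0462% of all genes).

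Of these 15 genes, 6, 15 and 15 had a peak in the 3 STAG3 lists; the second and the third list together held 68 of all 76 members and 57.2% of all genes. With a window of 1000 bp, 4 of 66 testable members were called, against 7.35% of all genes in either direction. Without the second GSC STAG2 list 1 of 70 was called (2.76% of all genes), and without the first or the second GSC STAG1 list 8 of 70 (8.79% and 8.83%). Under the first 2 of these settings the members' share was below that of all genes. Over the STAG2 lists alone 8 of 65 testable members were called, against 7.76% of all genes in either direction. Over the STAG1 lists alone 0 of 41 were called, and 0 of all genes. There the smallest p of the exact permutation test was 0.0222, and 2 members had an unadjusted p under 0.05. With each list cut to 9641 peaks, 17 members could be tested, and 3 were called, against 20.6% of all genes tested. These were Rpl26 and Rpl36 in more GSC lists, and Rpl19 in fewer.

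CTCF was called at 47, 48, 46 and 48 members in the Stag1Stag2dKO, Stag1Stag3dKO, Stag2Stag3dKO and Stag3 KO lists. All 4 lists held a peak at 44 members (57.9%), against 31.6% of all genes, and 27 members had none. Among the strongest by percentile were Rpl5, Rpl36a, Rpl36, Rps2, Rps19, Rps15a, Rps29 and Rps28. For Rpl5, which forms a particle with 5S ribosomal RNA, the fold enrichments were 40.5, 40.7, 41.0 and 40.3 in the order above. With 1 list per genotype, these values have no replicate spread to be set against. The 5 members called in some lists only, Rpl23a, Rpl30, Rpl34, Rpl7a and Rps27, had a share of 6.58%, against 6.44% of all genes.

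The 27 members without a CTCF peak had STAG1 in every list at 0 genes in each cell type, against 2.35%, 0.32%, 1.45%, 4.71% and 0.03% of all genes without CTCF in ESC, EpiLC, d2PGCLC, d4c7PGCLC and GSC. Such a count is near the background. Of the 44 members with CTCF in all 4 lists, 43.2%, 11.4%, 45.5%, 77.3% and 11.4% had STAG1 in every list in the same order of cell types. Over all genes with CTCF in all 4 lists these shares were 67.1%, 36.3%, 56.3%, 77.5% and 24.4%. The members with CTCF thus lay below such genes in ESC, EpiLC, d2PGCLC and GSC and within 1 percentage point of them in d4c7PGCLC.

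STAG2 was in every list at 7, 14, 4, 1 and 0 of the 27 members without CTCF, in the same order of cell types. These were 25.9%, 51.9%, 14.8%, 3.7% and 0, against 31.2%, 33.3%, 18.5%, 11.1% and 2.6% of all genes without CTCF. The members lay above such genes in EpiLC and below them in the other cell types.

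In the second and the third of its lists, STAG3 was called at more of the members without CTCF (22 and 24) than any STAG1 or STAG2 list, of which the second EpiLC STAG2 list held the most (17), while the first STAG3 list held 7. The second and the third STAG3 lists both held a peak at 21 of the 27, or 77.8%, against 43.7% of all genes without CTCF, and all 3 lists did at 6 (22.2% against 16.3%). In the 3 GSC STAG2 lists 3, 0 and 7 of the 27 had a peak (11.1%, 0 and 25.9%), against 18.5%, 3.85% and 21.3% of all genes without CTCF. CTCF had been mapped in mutant GSC, so for the other cells these are sites of another line and genotype. Of the members' strongest STAG3 peaks, 33.3%, 30% and 30.6% overlapped a CTCF site shared by the 4 lists, close to the 34.7%, 25.2% and 25.5% of all genes. For STAG1 the members' values were 76.9% to 100.0% over the 10 lists, near the 75.1% to 98.1% of all genes. For STAG2 they were 55.2% to 80.6% over the 13 lists, against 40.4% to 74.6% of all genes. The members' STAG2 value was the higher in each list, by least in the second GSC list, with 9 members (77.8% against 74.6%).

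**Figure D3:**
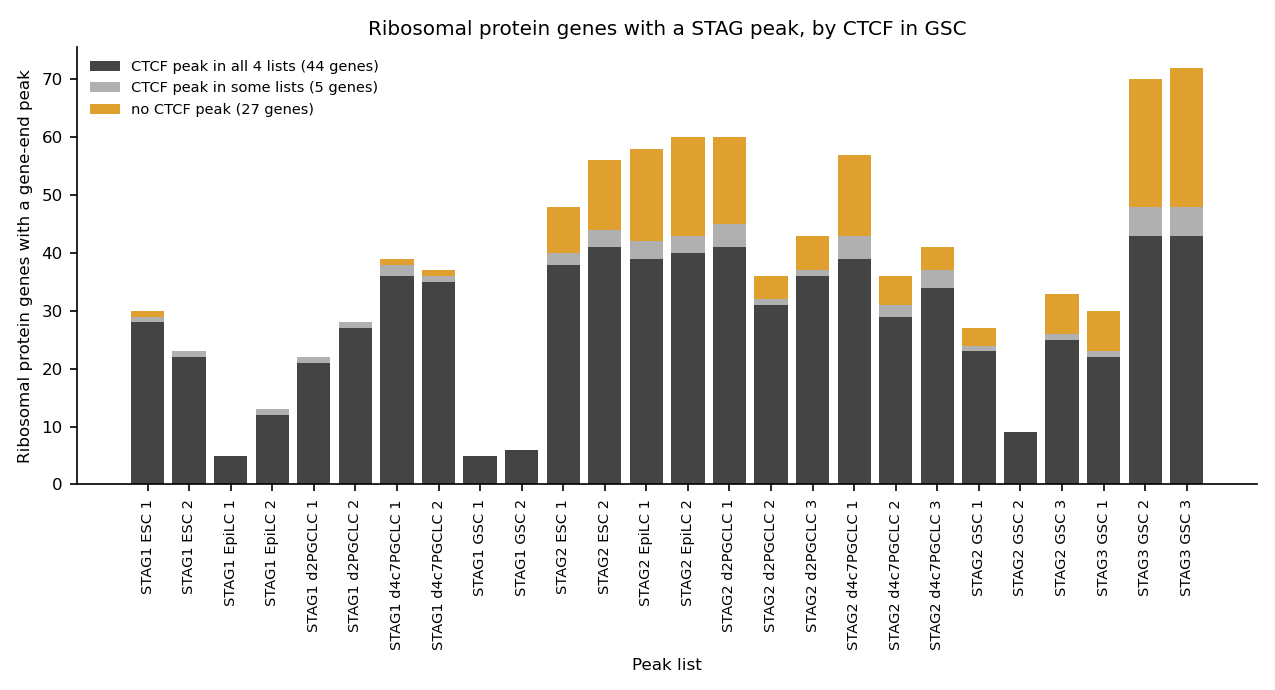
Bars give the number of ribosomal protein genes with a gene-end peak in each of the 26 STAG lists, divided by whether the same gene has a CTCF peak in all 4 GSC lists (44 genes), in some (5) or in none (27). STAG1 bars hold at most 1 gene without CTCF, and the second and the third STAG3 bars hold 22 and 24.

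The place of the peaks differed between proteins. Among members with an annotated start, the strongest STAG3 peak had its summit within 500 bp of the start in 81.0%, 78.0% and 82.7% of the genes with a peak in the 3 lists (17 of 21, 39 of 50 and 43 of 52). Over all genes the values were 60.0%, 64.9% and 64.7%. The GSC STAG2 lists had 61.1%, 33.3% and 52.2% (11 of 18, 2 of 6 and 12 of 23), below all 3 STAG3 values. Over all genes the GSC STAG2 values were 51.4%, 36.3% and 55.0%, also below all 3 STAG3 values of all genes. In the ESC and EpiLC STAG2 lists the share was 22.5% to 32.6%, against 34.0% to 40.6% of all genes. The CTCF lists had 30.3% to 39.4%, against 24.5% to 25.4% of all genes. Hence the members' STAG3 peaks lay at the start more often than those of all genes. Their STAG2 peaks did so less often in both ESC lists and the first EpiLC list. In the second EpiLC list the values were close (14 of 43, or 32.6%, against 34.0%). The shares over members carry no test.

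**Figure D4:**
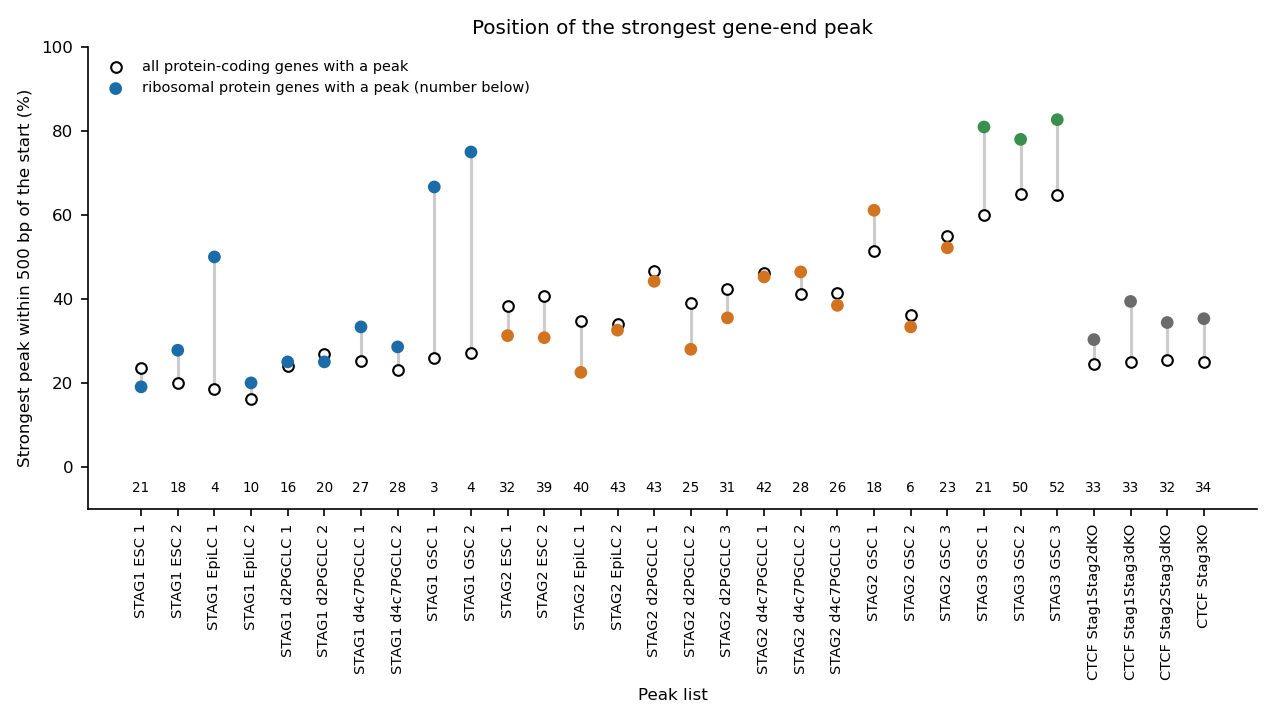
Points give the percentage of genes whose strongest gene-end peak has its summit within 500 bp of the annotated start, for ribosomal protein genes (filled, coloured by protein, number of genes printed below) and all protein-coding genes (open). The 3 STAG3 points of the ribosomal protein genes lie at 78.0% to 82.7%; the GSC STAG1 points rest on 3 and 4 genes.

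Single genes show how the strongest peak changed place. At Rps19, a small-subunit protein gene (chr7:24884592-24889811), the strongest STAG2 peak of the ESC lists had its summit 5794 and 5795 bp past the start, beyond the far end of the gene. The STAG3 summits of the same gene lay at 12, -8 and 40 bp. At Rpl22, a large-subunit protein gene (chr4:152324436-152334082), the STAG1 summits of the 8 lists outside GSC lay 7446 to 7489 bp past the start, no STAG1 peak was called in GSC, and the STAG3 summits of the second and the third lists lay at 169 and 48 bp. Rpl26 (chr11:68901566-68904534), also of the large subunit, had its strongest STAG2 peak 3458 to 3498 bp past the start in all 10 lists outside GSC and at -22, -8 and 1 bp in GSC. At Rpl10a (chr17:28328471-28331033), by contrast, the strongest peak of every STAG list that held one had its summit between -65 and 45 bp from the start.

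In the promoter windows, a STAG3 summit lay in the window from 250 bases before to 50 after the start in at least 1 list at 38 of 56 members (67.9%), against 36.9% of 17274 genes. All 3 lists had one at 6 members (10.7% against 4.46%): Rpl10a, Rpl35, Rpl5, Rplp0, Rps15 and Rps7. CTCF summits of all 4 lists lay there at 10 members (17.9% against 5.07%): Rpl10a, Rpl11, Rpl26, Rpl27, Rpl36a, Rpl38, Rpl5, Rplp0, Rps15 and Rps4x. Rpl35 and Rps7, whose promoters are printed above, were thus the 2 with STAG3 in all lists and no CTCF summit in this window. Rps7 had no CTCF gene-end peak at all, whereas Rpl35 had one in all 4 lists, farther upstream. A STAG2 summit of any GSC list was found at 10 members (17.9%), against 17.7% of all genes. Among the 10 promoters with CTCF in all 4 lists, 1, that of Rps4x, held the CTCF core (10%), against 28.5% of all 875 such promoters.

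A peak in all 26 STAG lists was found at 2 members (2.63%), against 4.19% of all genes, among them Rps15a (chr7:118104374-118116147) of the small subunit, which was also in all 4 CTCF lists. Fold enrichment ranks peaks within a list, so their place is given as a percentile of the list. The strongest peak of Rps15a stood at the 98.9 to 99.8 percentile of the d2PGCLC STAG2 lists, with fold enrichments of 185, 109 and 123. In the STAG3 lists its strongest peak stood at the 36.6, 37.3 and 19.1 percentile. These lists differ in length and cell type, and the peaks lay at different places: the STAG3 summits were at 179, 12865 and -96 bp from the start, and the d2PGCLC STAG2 summits at 13659 to 13682 bp. Rpl10a stood at the 95.5, 95.3 and 95.0 percentile of the STAG3 lists. Rps29 led in GSC STAG2, at the 96.2, 94.1 and 96.2 percentile. Rpl19, Rps27 and Rps28 were also among the 3 highest members in STAG2 lists of at least 1 cell type, and Rpl22 was among the 3 highest in the STAG1 lists of ESC, EpiLC and d2PGCLC.

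The large-subunit and small-subunit genes were counted apart. In the second and the third STAG3 lists, 41 and 40 of the 43 large-subunit genes and 26 and 29 of the 30 small-subunit genes had a peak. The shares of all genes were 61.7% and 62.6%. STAG3 in all 3 lists was found at 14 large-subunit genes (32.6%) and 14 small-subunit genes (46.7%), against 26.6% of all genes. STAG1 in both d4c7PGCLC lists was found at 22 (51.2%) and 12 (40%), against 29.4% of all genes. The difference between the subunits was not tested. The 3 P-stalk genes, whose products recruit translation factors to the ribosome, differed among themselves. Rplp0 was in 9 of 10 STAG1 lists, 9 of 13 STAG2 lists, all 3 STAG3 lists and all 4 CTCF lists. Rplp1 had no STAG1 or STAG2 peak, STAG3 in 2 lists and CTCF in 4. Rplp2 had 1 STAG2 peak, in the second EpiLC list, STAG3 in 2 lists and no CTCF.

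The X-linked members stood apart in the STAG3 lists, a division chosen after their values were seen. Rpl10 and Rpl39 had no STAG3 peak, Rpl36a had one in 2 lists and Rps4x in 1, so that 2 of 4 were in any STAG3 list, against 72 of 72 autosomal members. Over all genes the shares were 21.6% on X and 69.5% on autosomes. CTCF in all 4 lists was found at 2 of the 4 and at 42 of the 72, against 12.9% and 32.5% of all X-linked and autosomal genes.

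Among snoRNA hosts, 25 of 29 had STAG3 in the second and the third lists (86.2%), against 43 of 47 other members (91.5%). The same lists held 39 of 41 members with another gene's end in the window (95.1%) and 29 of 35 without one (82.9%). Over all genes these shares were 76.2% and 46.6%. The part of neighbouring gene ends in the STAG3 counts was not tested.

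Other genes of ribosome production gave the following counts. Of 12 matched ribosomal protein genes outside the rule, among them Fau and Rack1, 5 had STAG3 in all 3 lists (41.7%), 1 was called with more STAG2 than STAG1 lists and 2 with fewer GSC lists. Of 20 translation factor and related genes whose messages share the terminal oligopyrimidine tract, 5 had STAG3 in all lists (25%), 5 were called with more STAG2 and 3 with fewer GSC lists. Of 30 ribosome assembly genes, 11 had STAG3 in all lists (36.7%), 2 were called with more STAG2 and 3 with fewer GSC lists. Of 8 regulators, such as Myc, Yy1 and Gabpa, 2 had STAG3 in all lists (25%), 2 were called with more STAG2 and 1 with fewer GSC lists. Of 78 mitochondrial ribosomal protein genes, 33 had STAG3 in all lists (42.3%), 14 were called with more STAG2 and 13 with fewer GSC lists. None was called in the other direction in either comparison. In the order above, 8.33%, 26.3%, 7.69%, 28.6% and 19.4% of the genes tested were called with more STAG2, against 27.5% of all genes. For fewer GSC lists these shares were 16.7%, 15.8%, 11.5%, 14.3% and 18.1%, against 13.6% of all genes. The members' 38.2% for STAG3 therefore lay within the range of these lists, 25% to 42.3%, against 26.6% of all genes.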

How the data were processed

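The series holds 92 samples, and the 30 deposited peak lists were used here: 10 of STAG1, 13 of STAG2, 3 of STAG3 and 4 of CTCF. Formaldehyde-crosslinked, sonicated chromatin had been precipitated, per the labels' protocols. Per the submitters' processing notes, the tools include Bowtie2 2.3.4.1 and MACS2 and the builds are GRCm38.p3 and mm10. The notes also name deepTools 3.5.0, Trim Galore 0.4.1, bedtools 2.29.2, cutadapt 1.9.1 and SAMtools 1.7, with no roles. For the peak caller, its version, options and control library were not given in the sources used here. Each deposited line gives a peak with the authors' fold enrichment at its summit, a linear ratio to the background. The authors' −log10 of the p-value and −log10 of the q-value and an integer score stand beside it in the deposited lists. STAG lists are 1 per sample, and CTCF lists were called by the authors on pooled replicates, per the peak names in the files. Depth cannot be read from such lists, so no interval for counting error is given, and a missing peak is not absence of the protein. Peak lists hold no expression values, so labelled cell types and knockouts were not checked against marker genes.

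Genes and ends came from RefSeq (GRCm38.p6), whose strand was at hand for 56 members through the promoter table; a gene's outermost annotated start may not be its main one. Presence was a peak overlapping the window of 2500 bp around either gene end. Presence was compared between STAG2 and STAG1 within cell type, and between GSC and the other cells within protein, by a two-sided exact stratified permutation test per gene, with Benjamini-Hochberg adjustment over 14963 genes and a threshold of 0.05. Where 3 lists met 3 or fewer, counts of genes whose lists did not overlap were given without a test. The procedure was tested on simulated data in which unchanged genes had the same rate of presence in every list. Lists of unequal length were not simulated. Python 3.11.15, numpy 2.4.6, pandas 2.3.3, scipy 1.17.1 and matplotlib 3.10.9 were used. Named members were those called in either comparison (up to 15), those in all 26 STAG or all 30 lists, and those with STAG3 in all GSC lists and no STAG1 or STAG2 (up to 10). Also named were the 3 members of highest mean percentile per protein and cell type, the P-stalk genes, the 10 highest CTCF members and those whose CTCF calls differed. Other members named were chosen after their values were seen. The members and gene lists were chosen with earlier results of these data known. Alternatives were a window of 1000 bp, a −log10 q of at least 5, the summit in the window, the annotated start only, lists of equal length, single proteins, a replicate block and leaving out each list. Some named members are not reported here and were left out of the plot of members by list; all counts include them.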

Additional observations from a re-analysis of the deposited data

Results flagged for a closer look

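Rps14, a small-subunit protein gene, was the 1 member whose STAG1 and STAG2 lists did not overlap in opposite directions in 2 cell types. In EpiLC it had STAG2 in both lists and STAG1 in neither, as did 55.3% of the members and 34.4% of all genes. In d4c7PGCLC it had STAG1 in both lists and STAG2 in none of 3, which held for 1.32% of the members and 0.656% of all genes. The share of all genes that show both patterns is not given here. The difference between the cell types was not tested.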

How the results depend on the processing

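Of the 14 members called with more STAG2 than STAG1, 11 were still called with a window of 1000 bp, 12 with a −log10 q of at least 5 and 13 with the summit in the window. Of the 15 called lower in GSC, these numbers were 4 of 14 with a value, 13 and 13. With a window of 1000 bp, 4 members in all were called in GSC, and members in every list numbered 10 (STAG1, ESC), 12 (STAG1, d2PGCLC), 19 (STAG1, d4c7PGCLC), 30 (STAG2, ESC), 17 (STAG2, d4c7PGCLC) and 5 (STAG2, GSC). With the annotated start only, which leaves 56 members, 6 were called in GSC, 13 had STAG3 without STAG1 and 21 had CTCF in all 4 lists. Over all genes with a start these shares were 7.33% of those tested, 18.3% and 21.7%. Members in every list then numbered 8, 2, 6, 15 and 2 for STAG1 and 23, 23, 15, 13 and 2 for STAG2 in ESC, EpiLC, d2PGCLC, d4c7PGCLC and GSC, and 16 for STAG3. Rpl22 then changed direction in the GSC comparison, with an adjusted p of 1 in the exact permutation test. At equal list lengths no original call with a value was kept (0 of 3 for STAG2 against STAG1, 0 of 6 in GSC). The 1 member called for STAG2 against STAG1 was Rpl22, with STAG2 lower (2.68% of all genes tested were called). In GSC 3 were called, Rpl26 and Rpl36 higher and Rpl19 lower (20.6% of all genes tested). STAG3 without STAG1 was found at 8 members (4.89% of all genes). Members in every list were 3, 2, 5 and 6 for STAG1 in ESC, EpiLC, d2PGCLC and d4c7PGCLC, against 7.05%, 5.82%, 7.79% and 7.84% of all genes. For STAG2 they were 3, 3, 4, 4 and 5 in the 5 cell types, against 7.48%, 7.72%, 7.92%, 7.66% and 6.73% of all genes. For STAG3 they were 11, against 10.1% of all genes. The GSC comparison gave 8 over STAG2 lists alone (7.76% of all genes tested) and 0 over STAG1 lists alone (0 of all genes). The cause of these shifts was not tested beyond the fewer genes, peaks or lists that each setting leaves.

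Leaving out 1 list at a time gave 10 to 18 members for STAG2 against STAG1 (20.4% to 31.3% of all genes tested). For GSC it gave 1 to 16 members (2.76% to 15.9% of all genes tested). The lowest GSC value came without the second GSC STAG2 list. STAG3 without STAG1 was found at 23 to 62 members (18.9% to 46.8% of all genes). STAG3 without STAG2 was found at 9 to 26 members (6.52% to 18.5%). Members in every list ranged from 23 to 30, 5 to 13, 22 to 28, 37 to 39 and 5 to 6 for STAG1 in ESC, EpiLC, d2PGCLC, d4c7PGCLC and GSC. The STAG2 ranges were 48 to 56, 58 to 60, 35 to 41, 30 to 38 and 8 to 17, and the STAG3 range 29 to 68. Over all genes the STAG2 ranges were 56.1% to 58.2%, 58.7% to 59.4%, 39.6% to 50.5%, 32.3% to 37.7% and 14.0% to 25.8%. The STAG3 range over all genes was 26.9% to 57.2%. With a replicate block, an exact sign test over 10 pairs called 0 members, with 14 at an unadjusted p under 0.05. The same test called 0 of all genes, so its count says nothing about the members in particular. Correlations between the deviations of lists of the same number were up to 0.05. With 2 STAG1 lists per cell type these deviations mirror each other, so the correlations cannot decide whether the numbers pair the samples.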
